A study of Mus musculus with 6 samples.

Results

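Calcium handling and ion channel genes of the heart were examined as a set of 31 genes, listed by symbol and measured by summing the estimated counts of all transcripts of each gene. All 31 were present by symbol among the 17524 genes of the deposited table, and all 31 were tested. They cover 7 roles: calcium release and storage in the sarcoplasmic reticulum, calcium uptake into it, calcium entry and extrusion at the cell surface, inward rectifier and background potassium channels, voltage-gated potassium channels, pacemaker channels and gap junctions. None of them passed a test of TFEB overexpression against control. Most of these genes were lowest in 1 TFEB library and highest in another, with the controls between, and Kcnj3, Kcnj5 and Gja5 were highest in 1 control.

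The libraries came from mouse hearts in which the left anterior descending coronary artery had been tied off, a model of myocardial infarction. The 3 controls, libraries 35, 36 and 37, are labelled wild type, and the 3 TFEB overexpression libraries, 34, 41 and 43, carry R26-LSL-TFEB, marked [+/+] in the design text, with Acta2-cre. In such a line a loxP-flanked stop keeps the cassette silent until Cre removes it, and Cre is driven by the promoter of Acta2, which encodes an actin of smooth muscle and is also on in myofibroblasts. TFEB is a transcription factor of lysosome and autophagy genes. Neither age nor sex nor the time after ligation is given in the sources used here. The labels do not say whether the wild-type mice carried Cre or the cassette, so what these may do by themselves and what TFEB does cannot be told apart. They do not say either that each library is a separate animal, so the p-values speak only of the spread between the 6 libraries, which may be technical.

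Each library held between 12942480 and 14969287 estimated counts. By their labels the samples are both heart tissue and primary fibroblasts, but genes of cardiomyocytes dominated: Myh6, the main myosin heavy chain of the adult mouse heart, ranged from 23129 to 49163 CPM (counts scaled to library size), and the fibroblast receptor gene Pdgfra from 71.1 to 117 CPM. The mouse gene Tfeb (Entrez 21425) stood at 34.4, 33.8 and 41.4 CPM in the controls and at 45.4, 45.3 and 39.4 CPM with TFEB overexpression (libraries 35, 36 and 37, then 34, 41 and 43, the order used throughout), and the groups overlapped (log2 fold change 0.25, SE 0.12, edgeR adjusted p = 1.00). Whether these counts include transcripts of the cassette was not tested. Libraries stood apart in 2 respects that bear on the genes below. The atrial myosin light chain genes were high in control 35, with Myl7 at 1507 CPM against at most 134 CPM elsewhere. The summed TPM (a level scaled for transcript length and to the same sum in every library) of 10 myofibroblast and matrix markers ran from 545 in TFEB 43 to 7567 in TFEB 34. In whole tissue, fewer cells of a type and less RNA per cell cannot be told apart.

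Each heartbeat begins with an action potential that opens L-type calcium channels, and the calcium that enters makes ryanodine receptors release far more from the sarcoplasmic reticulum. The muscle relaxes when the pump SERCA2 returns calcium to that store, held back by phospholamban, and when the sodium-calcium exchanger removes the rest. Potassium channels end the action potential and set the resting voltage, pacemaker channels drive spontaneous firing, and connexins carry current from cell to cell.

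Promoter sequences are shown for 3 of the members with a motif match below. Kcnj2 is among them because TFEB is known to bind an E-box (CACGTG). Pln and Casq2 were among the genes whose levels moved together between libraries, as was Kcnj2. A link between the motifs and these levels was not tested. RefSeq windows of 300 bases, from 250 before to 50 after the start site (GRCm38.p6), were present for 24 of the 31 genes, 28 windows in all. They were searched on both strands for CACGTG and for its longer form TCACGTGA, which contains it. The MEF2 and CArG motifs of muscle genes were searched too, and so was AGATAA, a motif of the zinc finger factors that take part in heart development. CACGTG was found in 1 of the 28 windows, that of Kcnj2, against 7.15% of all 32851 windows and 9.63% of the 13813 windows of tested genes. TCACGTGA and CArG were found in 0 windows of these genes, against 0.974% and 1.63% of all windows, and 1.69% and 1.36% of those of tested genes. AGATAA was found in the windows of 3 members, Gja1, Pln and Slc8a1, that is 10.7% of the 28 windows, against 11.2% of all windows and 6.50% of those of tested genes. MEF2 was found in that of Casq2 alone, against 3.19% of all windows and 1.88% of those of tested genes. A match describes the letters in the window and is not a measured site. Below are the 200 bases before the start site of each gene, plus strand, with the match in capitals: CACGTG for Kcnj2 at chr11:111065964-111066163, its first base 84 before the start, AGATAA read on the other strand for Pln at chr10:53337486-53337685, 183 before, and MEF2 for Casq2 at chr3:102086215-102086414, 69 before.
Kcnj2: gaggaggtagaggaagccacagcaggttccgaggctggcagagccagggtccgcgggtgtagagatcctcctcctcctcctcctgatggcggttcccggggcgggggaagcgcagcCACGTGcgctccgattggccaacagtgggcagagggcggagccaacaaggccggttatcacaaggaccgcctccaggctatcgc
Pln: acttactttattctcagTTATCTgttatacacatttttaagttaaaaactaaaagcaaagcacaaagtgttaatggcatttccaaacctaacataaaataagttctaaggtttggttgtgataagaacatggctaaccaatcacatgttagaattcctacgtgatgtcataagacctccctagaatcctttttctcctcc
Casq2: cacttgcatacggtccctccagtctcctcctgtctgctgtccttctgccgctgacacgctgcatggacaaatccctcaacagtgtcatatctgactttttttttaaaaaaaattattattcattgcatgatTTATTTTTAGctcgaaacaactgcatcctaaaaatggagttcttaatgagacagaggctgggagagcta

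No member passed the test. With edgeR's quasi-likelihood test and Benjamini-Hochberg adjustment over all 13565 genes, 0 of 31 members were called and 0 of all genes (0%). At an unadjusted p under 0.05 there were 0 members, against 164 genes or 1.21% of all genes tested, and the smallest unadjusted p of a member was 0.0782. DESeq2 called 0 members and 1 of 13557 genes (0.00738%), and limma-voom called 0 members and 0 genes (0%). The 3 values of a group lay wholly apart from those of the other in 0 of 31 members and in 645 genes, or 4.75%. Of the members, 13 had a higher and 18 a lower fitted value in TFEB overexpression, and the median log2 fold change was −0.02, while over all genes 6915 were higher and the median was 0.00. The 95% interval held 0 for 31 of 31 members. For 20 of them the interval of the ratio lay within 0.5 to 2, so a change of more than 2-fold was outside it; for the other 11 it was wider. Standard errors ran from 0.11 for Camk2d to 0.78 for Kcnj3, with a median of 0.25. The plot of fold changes gives the interval of each gene.

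**Figure D1:**
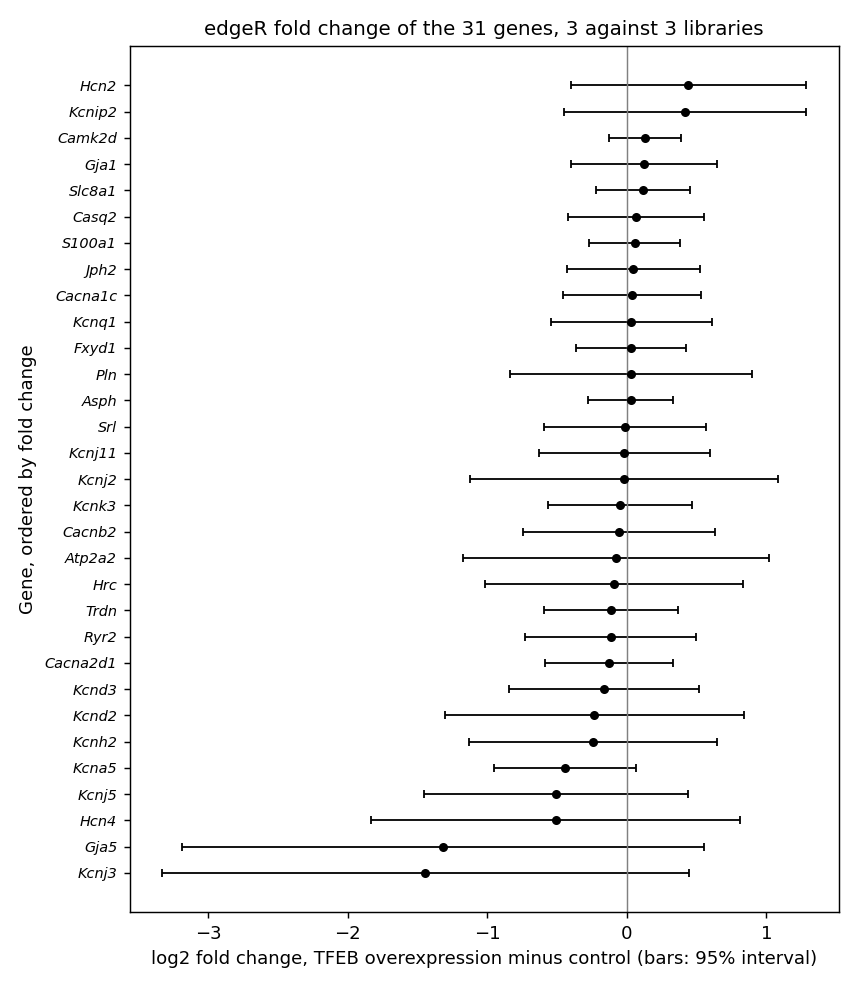
Log2 fold change of each of the 31 genes, TFEB overexpression minus control, from edgeR on 3 against 3 libraries; points are fitted values and bars 95% intervals, with genes ordered by value. All 31 intervals cross 0, and those of Kcnj3 and Gja5 are the widest, with standard errors of 0.78 and 0.78.

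Per unit of transcript length, the gene of the calcium pump and those of its regulators phospholamban and S100a1 were the most abundant members. Over the 6 libraries Atp2a2 averaged 7047 ± 1833 TPM (SD, n = 6), Pln 4715 ± 994 TPM and S100a1 1578 ± 126 TPM; no other member reached the level of S100a1. Neighbours in the order were often within each other's spread, as were Fxyd1 at 909 ± 71.9, Casq2 at 840.3 ± 78.4 and Hrc at 758 ± 206 TPM. The ryanodine receptor gene Ryr2 stood in the middle at 187 ± 26.3 TPM, beside Asph at 190.2 ± 16.0 and Jph2 at 208 ± 23.4 TPM. Channel genes followed, from Kcnip2 at 135 ± 43.8 TPM down to Kcnd3 at 5.34 ± 1.05 and Hcn4 at 5.06 ± 2.85 TPM, the only 2 members under 10 TPM. The fewest estimated counts of any member in any library were 153, and the most were 315739.

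**Figure D2:**
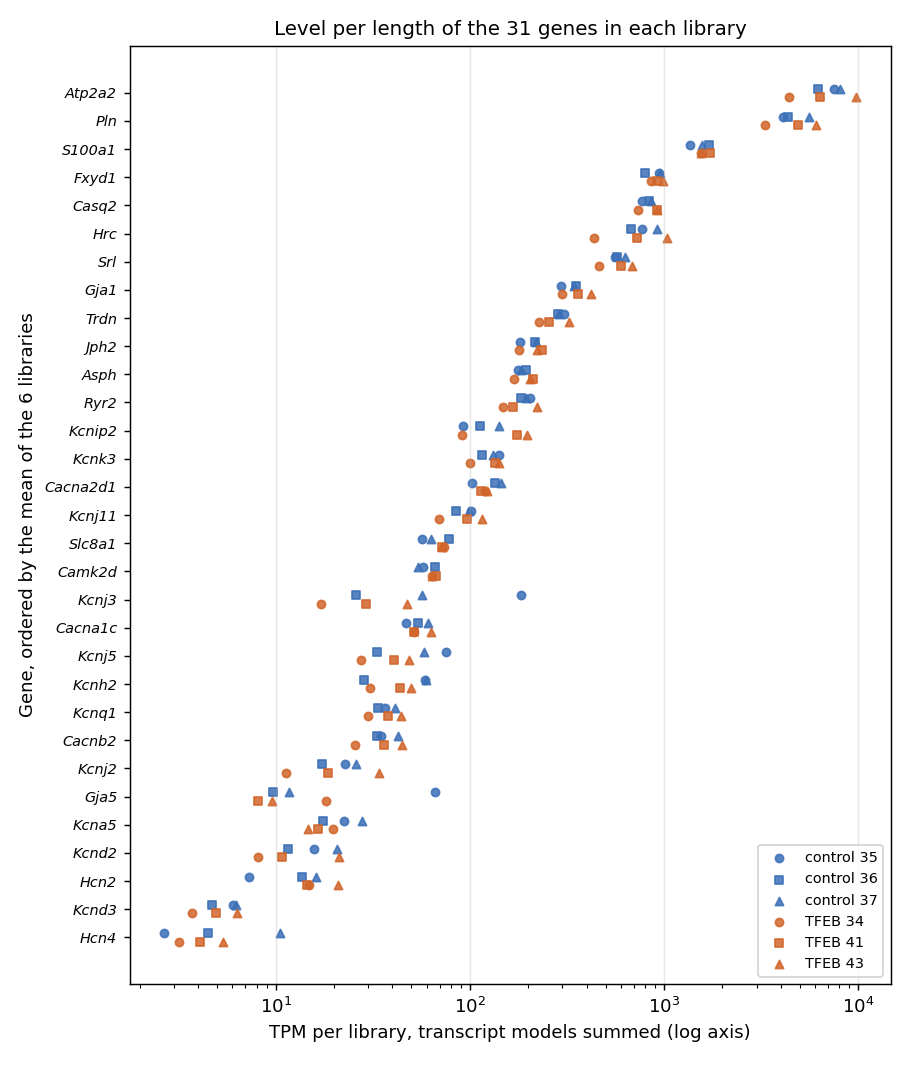
TPM of each of the 31 genes in each library on a log axis, with genes ordered by their mean over 6 libraries; blue marks controls and orange TFEB overexpression, and the symbol marks the library. Atp2a2 and Pln lead at means of 7047 and 4715 TPM, Hcn4 is last at 5.06 TPM, and the single points far to the right for Kcnj3 and Gja5 are control 35.

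Genes of calcium release and storage showed the same picture in all 7 members: overlapping groups, and a wider spread under TFEB overexpression than in control. The 7 were read in the same 6 libraries, so they do not count as separate observations. The TFEB libraries were often the extremes over all genes tested too. TFEB 34 was lowest for 27.4% and highest for 26.8% of them, and TFEB 43 for 25.5% and 25.0%. Ryr2, which encodes the release channel (Entrez 20191, chr13:11553099-12106945), stood at 2053, 1759.8 and 2106 CPM in the controls and at 1373, 1662 and 2422 CPM with TFEB overexpression. Both extremes were TFEB libraries, the lowest TFEB 34 and the highest TFEB 43, so the controls lay between them. The log2 fold change was −0.12 (SE 0.25), or 0.922 times control (95% interval, 0.602 to 1.41) (edgeR adjusted p = 1.00). Casq2, the calcium buffer of the store (Entrez 12373, chr3:102086415-102146514), stood at 1071, 1101 and 1281 CPM in the controls and at 935, 1274 and 1399 CPM with TFEB overexpression. TFEB 34 was again lowest and TFEB 43 highest, and the log2 fold change was 0.06 (SE 0.20). Trdn encodes triadin, which ties calsequestrin to the release channel (Entrez 76757, chr10:33083483-33476709), and it stood at 222, 208 and 240.2 CPM in the controls and at 159, 195 and 266 CPM with TFEB overexpression. Its groups overlapped in the same way (log2 fold change −0.11, SE 0.20). Among the other members of the release complex and junction, Asph, whose gene also makes the junctional protein junctin, had 286 ± 5.90 CPM in control and 291 ± 35.2 CPM with TFEB overexpression (SD, n = 3 each). Junctophilin-2 (Jph2), which holds the store against the surface membrane, had 492 ± 66.2 CPM in control and 509 ± 102 CPM with TFEB overexpression (SD, n = 3 each). The histidine-rich calcium-binding protein gene Hrc had 1046 ± 226 CPM in control and 983 ± 475 CPM with TFEB overexpression (SD, n = 3 each), and the sarcalumenin gene Srl 1376 ± 161 CPM in control and 1364 ± 363 CPM with TFEB overexpression (SD, n = 3 each). Their log2 fold changes lay between −0.09 (Hrc, SE 0.38) and 0.05 (Jph2, SE 0.20).

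Of the 4 calcium uptake genes, Atp2a2 and Pln varied by more than 2-fold among the TFEB libraries, and S100a1 and Camk2d were nearly level. Atp2a2, the gene of SERCA2 (Entrez 11938, chr5:122453513-122502225), stood at 18562, 14538 and 21368 CPM in the controls and at 9931, 15546 and 26089.9 CPM with TFEB overexpression. TFEB 43 was 2.63 times TFEB 34, and all 3 controls fell between them. The log2 fold change was −0.08 (SE 0.45), or 0.947 times control (95% interval, 0.443 to 2.02) (edgeR adjusted p = 1.00). A 2-fold fall and a 2-fold rise both lay inside the interval. Pln, the gene of phospholamban (Entrez 18821, chr10:53337686-53345999), stood at 5198, 5238 and 7586 CPM in the controls and at 3887, 6179 and 8320.5 CPM with TFEB overexpression. It followed Atp2a2 in which library was lowest and highest, with a log2 fold change of 0.03 (SE 0.36). S100a1, a calcium sensor that acts on SERCA2 and the ryanodine receptor (Entrez 20193, chr3:90511034-90514330), stood at 288, 339 and 348 CPM in the controls and at 301, 361 and 350.3 CPM with TFEB overexpression. Its lowest library was control 35 and its highest TFEB 41, and the log2 fold change was 0.05 (SE 0.13). Camk2d, the main calcium/calmodulin kinase of heart muscle (Entrez 108058, chr3:126595487-126846326), stood at 157, 169.97 and 158 CPM in the controls and at 159.7, 181 and 189.97 CPM with TFEB overexpression. It was the steadiest member, with 1.21 times between its highest and lowest library, and its log2 fold change of 0.13 (SE 0.11) was 1.10 times control (95% interval, 0.916 to 1.31) (edgeR adjusted p = 1.00).

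Calcium entry and extrusion genes overlapped between the groups as well. Cacna1c, the pore of the L-type channel (Entrez 12288, chr6:118587240-119197384), stood at 369, 399 and 512 CPM in the controls and at 369.8, 399 and 543 CPM with TFEB overexpression. Control 37 and TFEB 43 were the 2 high libraries, 1 in each group, and the log2 fold change was 0.04 (SE 0.21). The auxiliary subunit gene Cacna2d1 (Entrez 12293, chr5:15934264-16374511) stood at 532, 696 and 823 CPM in the controls and at 605, 602 and 673 CPM with TFEB overexpression. Here the controls held both the lowest and the highest value, and the TFEB libraries lay between them (log2 fold change −0.13, SE 0.19). Cacnb2, the main cardiac beta subunit, stood at 82.1, 70.3 and 105 CPM in the controls and at 52.9, 82.6 and 111 CPM with TFEB overexpression, and TFEB 43 was 2.11 times TFEB 34. Slc8a1, the sodium-calcium exchanger gene (Entrez 20541, chr17:81373105-81738387), stood at 467, 558 and 564 CPM in the controls and at 531, 607 and 583 CPM with TFEB overexpression. Control 35 was the lowest library and TFEB 41 the highest, and the log2 fold change was 0.12 (SE 0.14), or 1.08 times control (95% interval, 0.858 to 1.37). Fxyd1, which encodes phospholemman, a regulator of the sodium pump and the exchanger, had 160.2 ± 23.4 CPM in control and 164 ± 24.2 CPM with TFEB overexpression (SD, n = 3 each), with a log2 fold change of 0.03 (SE 0.16).

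All 5 inward rectifier and background potassium channel genes had a lower fitted value in TFEB overexpression, and the sizes ranged from next to nothing to the farthest of any member. Kcnj3, a subunit of the acetylcholine-gated channel that is concentrated in atria (Entrez 16519, chr2:55411798-55598145), stood at 502, 67.8 and 161 CPM in the controls and at 43.4, 76.6 and 149 CPM with TFEB overexpression. Control 35 was 3.12 times the next library, and the other 5 libraries of the 2 groups overlapped. The log2 fold change was −1.44 (SE 0.78), or 0.368 times control (95% interval, 0.0995 to 1.36) (edgeR adjusted p = 1.00), and without control 35 it was −0.35. Kcnj5, its partner in that channel (Entrez 16521, chr9:32314706-32344380), stood at 196, 80.8 and 163 CPM in the controls and at 65.3, 106 and 139 CPM with TFEB overexpression. Control 35 was again highest, with control 37 second, and the log2 fold change of −0.51 (SE 0.39) became −0.24 without control 35 and −0.26 without TFEB 34, but −0.80 without control 36 and −0.78 without TFEB 43. Kcnj2, the main strong inward rectifier of ventricular muscle, did not share this pattern: it ranged from 32.8 CPM in TFEB 34 to 117 CPM in TFEB 43, with control 35 in between at 71.8 CPM and a log2 fold change of −0.02 (SE 0.46). Kcnj11, the pore of the ATP-sensitive channel, had 165 ± 23.1 CPM in control and 163 ± 52.7 CPM with TFEB overexpression (SD, n = 3 each). The background channel gene Kcnk3 had 282 ± 40.0 CPM in control and 272 ± 66.6 CPM with TFEB overexpression (SD, n = 3 each).

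Voltage-gated potassium channel genes included the member with the smallest p and the pair that makes the fast transient outward current. Kcna5, a channel gene of the delayed rectifier type (Entrez 16493, chr6:126532551-126535555), stood at 37.6, 27.6 and 49.5 CPM in the controls and at 30.4, 27.3 and 26.5 CPM with TFEB overexpression. Controls 35 and 37 were the high libraries, while control 36 lay within the narrow TFEB range. The log2 fold change was −0.44 (SE 0.21), or 0.736 times control (95% interval, 0.517 to 1.05), with an unadjusted p of 0.0782 (edgeR adjusted p = 1.00), and without control 37 it was −0.21. Kcnip2, the calcium-binding subunit of the transient outward channel (Entrez 80906, chr19:45792346-45816422), stood at 116, 135 and 190.04 CPM in the controls and at 106, 214 and 269 CPM with TFEB overexpression. TFEB 41 and 43 were above every control and TFEB 34 below every control, so the log2 fold change of 0.42 (SE 0.36) was 0.72 without TFEB 34 and 0.12 without TFEB 43. Kcnd2, a pore subunit of the same channel (Entrez 16508, chr6:21215346-21729805), stood at 49.4, 34.8 and 70.0 CPM in the controls and at 24.4, 34.2 and 72.9 CPM with TFEB overexpression. Control 37 and TFEB 43 were its 2 high libraries (log2 fold change −0.23, SE 0.44). Kcnd3, the other pore subunit (Entrez 56543, chr3:105451890-105674002), stood at 26.9, 20.0 and 30.2 CPM in the controls and at 15.4, 22.2 and 31.3 CPM with TFEB overexpression. It had the same extremes as Ryr2, TFEB 34 and TFEB 43, with a log2 fold change of −0.16 (SE 0.28). Kcnh2, the pore of the rapid delayed rectifier (Entrez 16511, chr5:24319589-24351684), stood at 121, 56.7 and 130.5 CPM in the controls and at 58.2, 89.4 and 113 CPM with TFEB overexpression. Control 36 and TFEB 34 were its 2 low libraries, 1 in each group, and the log2 fold change was −0.24 (SE 0.37), or −0.02 without TFEB 34, −0.03 without control 37 and −0.11 without control 35, but −0.53 without control 36 and −0.48 without TFEB 43. Kcnq1, the pore of the slow delayed rectifier, had 58.5 ± 10.5 CPM in control and 59.9 ± 17.6 CPM with TFEB overexpression (SD, n = 3 each).

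The 2 pacemaker channel genes were among the least abundant members and stood on opposite sides of 0. Hcn2 (Entrez 15166, chr10:79716634-79736108) stood at 13.0, 23.0 and 30.9 CPM in the controls and at 24.2, 25.7 and 40.7 CPM with TFEB overexpression. Control 35 was the low library and TFEB 43 the high one, and the log2 fold change of 0.44 (SE 0.35) was 0.17 without control 35 and also 0.17 without TFEB 43, but 0.75 without control 37. Hcn4, the main isoform of the sinus node (Entrez 330953, chr9:58822949-58863175), stood at 10.3, 16.4 and 43.5 CPM in the controls and at 11.3, 15.6 and 22.4 CPM with TFEB overexpression. Control 37 was 1.94 times the next library, and the log2 fold change of −0.51 (SE 0.55) turned to 0.30 without it and was −0.87 without control 35. Of 5 sinus node markers, Isl1 and Vsnl1 were under 1 CPM in every library. Tbx3, which is also expressed elsewhere in the conduction system, was highest in control 37 at 24.0 CPM, against 11.6 to 17.7 CPM in the others. The other 2 tested markers of this list did not share that order: Tbx18 was lowest in control 37, at 5.29 CPM against 7.02 to 15.02 CPM, and Shox2 was highest in TFEB 34, at 3.18 CPM. The part of conduction tissue in the Hcn4 value was not tested.

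Among gap junction genes, Gja1, the connexin of ventricular muscle (Entrez 14609, chr10:56377300-56390419), stood at 511, 578 and 638 CPM in the controls and at 471, 616 and 792 CPM with TFEB overexpression. TFEB 34 was lowest and TFEB 43 highest, and the log2 fold change was 0.12 (SE 0.22), or 1.09 times control (95% interval, 0.756 to 1.57). Gja5, the connexin of atrial muscle, conduction fibres and arterial endothelium (Entrez 14613, chr3:97032402-97053634), stood at 115, 15.9 and 21.9 CPM in the controls and at 29.0, 14.0 and 18.2 CPM with TFEB overexpression. Control 35 was 3.95 times the next library, TFEB 34, and the remaining values overlapped. The log2 fold change was −1.32 (SE 0.78), or 0.401 times control (95% interval, 0.110 to 1.47) (edgeR adjusted p = 1.00), and without control 35 it was 0.11.

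Kcnj3, Kcnj5 and Gja5 were highest in the library where atrial markers were highest. All 6 tested atrial markers were highest in control 35. Myl7 stood at 1507, 0.421 and 134 CPM in the controls and at 0.127, 7.69 and 37.7 CPM with TFEB overexpression, and Myl4 at 1953, 2.95 and 182 CPM in the controls and at 3.37, 11.3 and 52.8 CPM with TFEB overexpression. The level of the atrial list, as mean log2 CPM relative to the 6 libraries, was 4.71 in control 35, 1.21 in control 37 and from −2.51 to −0.23 in the other 4. In summed TPM the 7 listed atrial markers ran from 3056 to 56082 in control and from 1035 to 25672 with TFEB overexpression. Nppa alone made up nearly all of that sum in TFEB 34, at 25578 of 25672 TPM, and in control 36, at 12282 of 12337 TPM. The sum therefore does not follow the other atrial markers. Nppa, which injured ventricle also makes, stood at 13805, 4178 and 597 CPM in the controls and at 8454, 2328 and 224 CPM with TFEB overexpression. In control 36 and TFEB 34, Sln was at 0 and Myl7 under 1 CPM, and Bmp10 was at 0 in controls 35 and 36 and TFEB 41. Gja5 was next highest in TFEB 34, at 29.0 CPM, above control 37 at 21.9 CPM, so it shared only control 35 with these markers. The 4 ventricular markers Myl2, Myl3, Irx4 and Hey2 had their lowest joint level in control 35, at −0.54. The part of atrial tissue in the Kcnj3, Kcnj5 and Gja5 values was not tested. The plot of atrial markers beside these channels shows control 35 alone at the top for Myl7, Myl4, Kcnj3 and Gja5, but not for Hcn4, Kcna5 or Gja1.

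**Figure D3:**
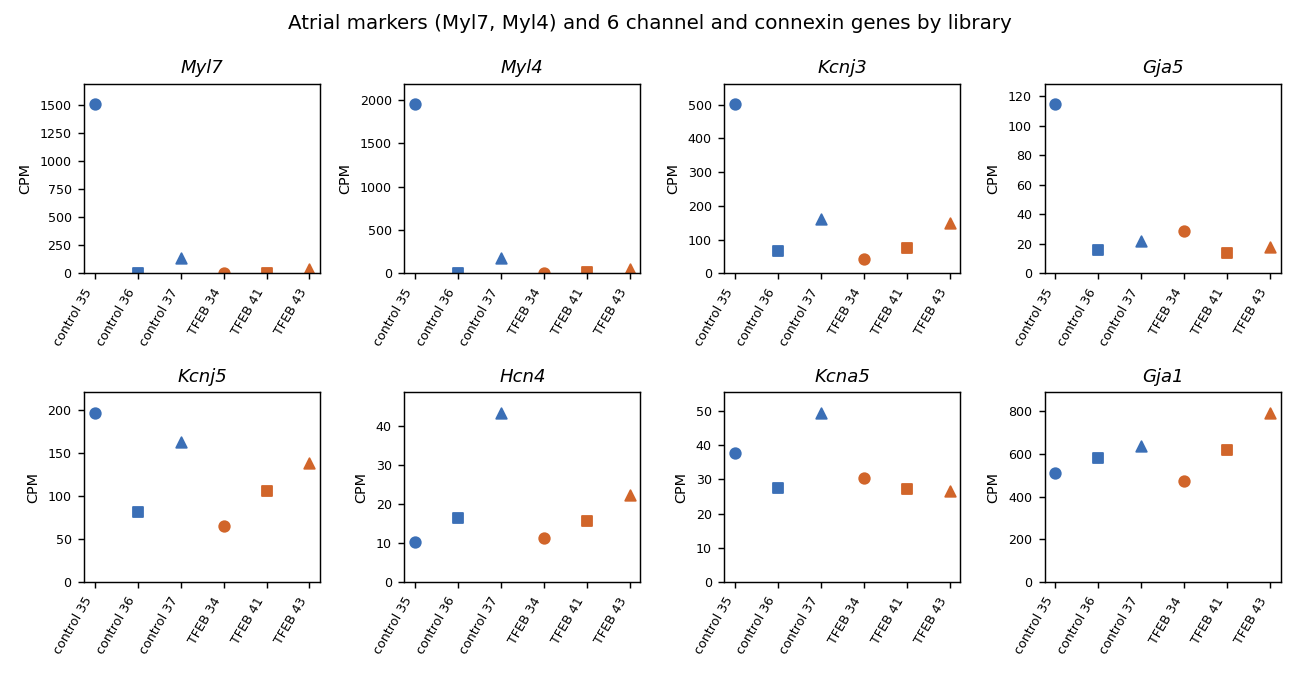
CPM of 2 atrial markers (Myl7, Myl4) and 6 members in each library; blue marks controls and orange TFEB overexpression, each panel has its own axis from 0, and each point is 1 library. Control 35 stands at 1507 CPM for Myl7, 502 CPM for Kcnj3 and 115 CPM for Gja5, above every other library, whereas Hcn4 and Kcna5 are highest in control 37 and Gja1 in TFEB 43.

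Most of the other members, but not all, moved along a different order of libraries. Control 35 was the lowest library for 7 of 31 members, against 13.4% of all genes tested. TFEB 34 was the lowest library for 20 of 31 members, against 27.4% of all genes tested, and TFEB 43 the highest for 22 of 31, against 25.0% of all genes. The mean log2 level of the 31 genes, relative to the 6 libraries, was 0.09, −0.20 and 0.29 in controls 35, 36 and 37 and −0.45, −0.06 and 0.33 in TFEB 34, 41 and 43. As a share of all counts the members made up 3.50%, 3.02% and 3.97% in the controls and 2.297%, 3.27% and 4.46% with TFEB overexpression. The highest library of a member was from 1.21 to 11.6 times its lowest, with a median of 1.87 against 1.48 over all genes. The ratio was above 2 for 14 members, and under 1.5 for 8.

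The 19 cardiomyocyte markers, which include no member, had levels of −0.13, −0.12 and 0.24 in the controls and −0.39, 0.09 and 0.30 with TFEB overexpression. The mean of this list was thus lowest in TFEB 34 and highest in TFEB 43, as that of the members was. Not every marker followed it. Myom2 was highest in control 35 and lowest in TFEB 43, Tnnc1, Actc1 and Mybpc3 were lowest in control 35, and Myom1 was highest in control 37. The summed TPM of the 19 markers ran from 88160 to 110109 in control and from 80494 to 115501 with TFEB overexpression. The mean of the 10 myofibroblast and matrix markers had the opposite extremes, highest in TFEB 34 and lowest in TFEB 43. It stood at 0.04, 1.24 and −1.84 in the controls and at 2.03, 1.11 and −2.58 with TFEB overexpression. TFEB 41 was above 0 on both lists, at 0.09 and 1.11. Not every matrix marker followed that mean either. Tnc was highest in TFEB 41, and Acta2 was lowest in control 36 and highest in TFEB 41. The 8 macrophage markers stood at 0.07, 0.20 and −0.998 in the controls and at 1.08, 0.42 and −0.78 with TFEB overexpression, lowest in control 37. No listed marker of these 3 lists was at 0 in any library. When the cardiomyocyte level was added to the edgeR fit as a covariate, 0 members were called. The standard error was smaller for 29 of 31 members, and its median went from 0.25 to 0.12. That level comes from the same 6 libraries and had the same extremes as the mean of the members. The smaller standard errors therefore say nothing further about TFEB overexpression, and their share over all genes was not computed. Kcnip2 was the only member with an unadjusted p under 0.05 in the covariate fit, at a log2 fold change of 0.35 (SE 0.09, edgeR adjusted p = 0.985). Of all 13565 genes tested, 379 had one. With 3 libraries a group and 1 more term, that fit rests on few residual degrees of freedom.

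**Figure D4:**
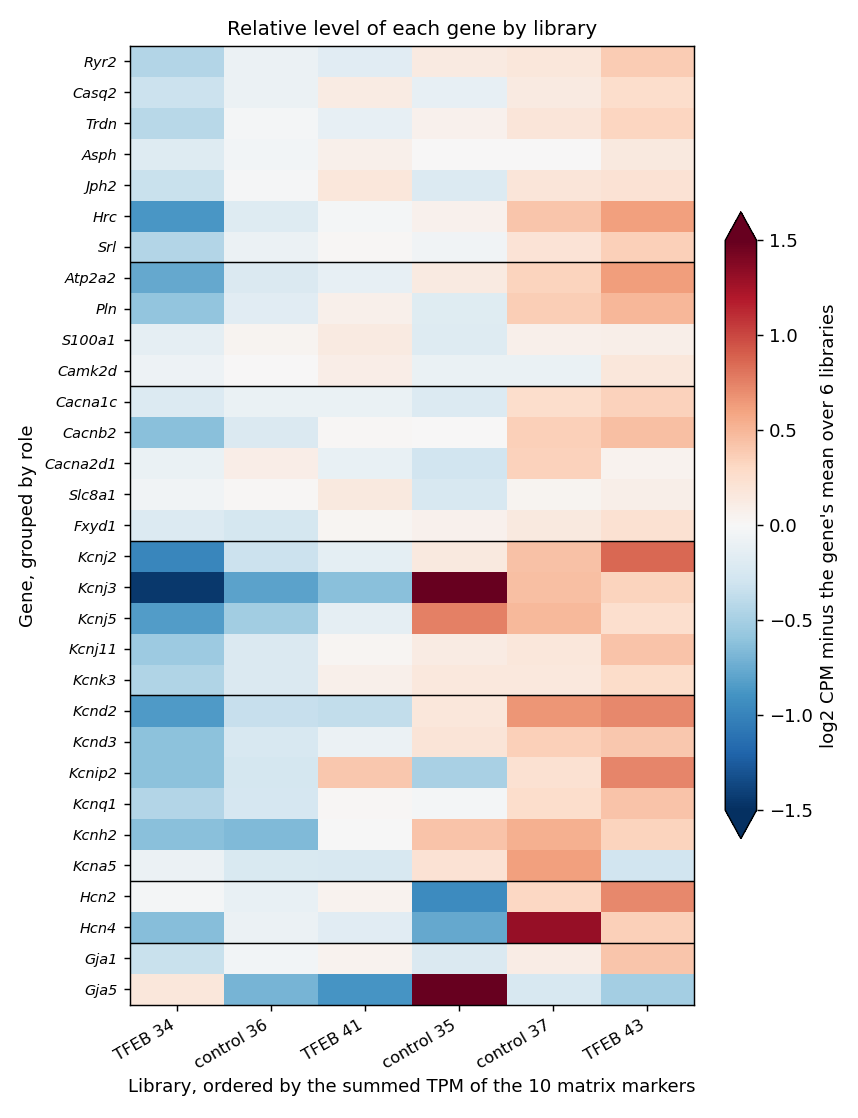
Log2 CPM of each of the 31 genes minus its mean over the 6 libraries, with genes grouped by role and libraries ordered from the highest to the lowest summed TPM of the 10 myofibroblast and matrix markers (7567 in TFEB 34 to 545 in TFEB 43); red is above and blue below the gene's mean, and the scale stops at 1.5 in both directions. Most rows pass from blue at TFEB 34 to red at TFEB 43 whatever the group, and Kcnj3 and Gja5 depart from this with control 35.

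Ratios within a library are not moved by scaling between libraries, and 7 pairs of members were compared in this way on TPM, as descriptions with no test. Phospholamban against its pump, Pln to Atp2a2, was 0.544, 0.700 and 0.691 in the controls and 0.760, 0.772 and 0.620 with TFEB overexpression. The range was narrower than that of either gene, and the groups overlapped. Exchanger against pump, Slc8a1 to Atp2a2, was from 0.007 to 0.017 in all 6 libraries, highest in TFEB 34. The store's buffer against its release channel, Casq2 to Ryr2, was 3.77, 4.52 and 4.41 in the controls and 4.92, 5.54 and 4.18 with TFEB overexpression. Kcnip2 to Kcnd2, the auxiliary against the pore subunit of the transient outward channel, was 5.85, 9.76 and 6.84 in the controls and 11.3, 16.2 and 9.29 with TFEB overexpression. TFEB 34 and 41 were above all controls, but TFEB 43 lay below control 36. Hcn4 to Hcn2 was 0.368, 0.331 and 0.652 in the controls and 0.215, 0.281 and 0.255 with TFEB overexpression. It was the only 1 of the 7 pairs whose groups did not overlap, lower by a mean of 0.79 on the log2 scale with TFEB overexpression, and by 0.49 without control 37. Both genes are low, at means of 5.06 TPM for Hcn4 and 14.6 TPM for Hcn2. How often other gene pairs separate in this way was not counted, so nothing is concluded from it. Kcnj3 to Kcnj2 was 8.06, 1.49 and 2.19 in the controls and 1.51, 1.57 and 1.39 with TFEB overexpression. It lay between 1.39 and 2.19 in 5 libraries and stood apart in control 35. Gja5 to Gja1 was 0.223, 0.027 and 0.034 in the controls and 0.061, 0.023 and 0.023 with TFEB overexpression, again set apart by control 35.

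**Figure D5:**
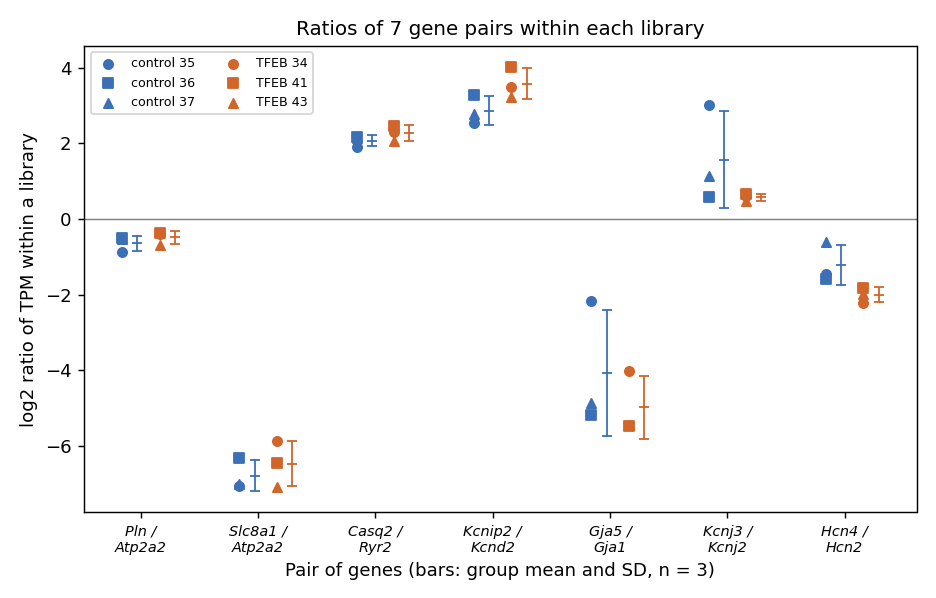
Log2 ratio of TPM for 7 pairs of members within each library; each point is 1 library, blue for control and orange for TFEB overexpression, with the group mean and SD (n = 3) drawn beside the points. Hcn4 to Hcn2 is the pair without overlap between the groups, and control 35 stands alone for Gja5 to Gja1 (0.223) and Kcnj3 to Kcnj2 (8.06).

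Transcript models bear on what some of these values count. The table gives more than 1 model for 23 of the 31 genes, and the division of reads between them is an estimate. For Atp2a2, the model with the shorter protein (998 amino acids), the form of heart muscle, made up 95.5% to 97.0% of the gene's TPM in every library, and the longer form (1044) the rest. For Pln, 1 model of 52 amino acids made up 97.6% to 98.1%. For Asph, the 207-residue model led with 44.6% to 61.3%. The longest of those with a matched length (741), which carries the hydroxylase, made up 4.94% to 7.72%. Other long models, of 725 and 658 amino acids, made up 0% to 4.57% and 0% to 7.56%, and several models had no matched length. For Kcnh2, both the long (1162) and the short (820) form were present, at 12.2% to 28.2% and 33.4% to 44.4%. Kcnd3 differed between libraries in its models: that of 655 amino acids made up 30.2%, 45.4% and 99.0% in the controls and 99.5%, 98.8% and 85.4% with TFEB overexpression, and that of 636 made up 69.8%, 54.6% and 0% in the controls and 0.536%, 0% and 12.89% with TFEB overexpression. The gene stood at 5.34 TPM on average, and the controls alone spanned 30.2% to 99.0%. The genes Asph, Pln, S100a1 and Cacna1c overlap another tested protein-coding gene (Clvs1, Cep85l, S100a13 and Dcp1b), and no strand setting is given in the sources used here, so their counts are uncertain to that extent.

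Other genes of the same pathways gave no call either. Of 136 listed genes in 8 groups, 121 passed the filter on low counts, and 0 were called by edgeR, against 0% of all genes. Of these, 64 had a higher and 57 a lower value, with 0.01 as the median log2 fold change, and 5 had an unadjusted p under 0.05, 1 higher and 4 lower, against 1.21% of all genes tested. Groups did not overlap in 5 of the 121, 2 higher and 3 lower, against 4.75% of all genes. By role, a higher value was seen in 16 of 29 other genes of the store and calcium transport (median 0.01), 6 of 16 kinases, phosphatases and anchors (−0.02), 5 of 14 other calcium channel subunits (−0.17) and 6 of 12 sodium channel subunits and partners (−0.01). It was seen in 13 of 22 other potassium channel subunits (0.07), 2 of 6 other cation channels (−0.05), 7 of 10 sodium pump and exchanger genes (0.03) and 9 of 12 junction and scaffold genes (0.03). Calr, a calcium buffer of the endoplasmic reticulum, stood at 303, 358 and 325 CPM in the controls and at 366, 421 and 376 CPM with TFEB overexpression. Its log2 fold change was 0.24 (SE 0.12) with no overlap between the groups (edgeR adjusted p = 1.00). Sln, the gene of sarcolipin, the atrial inhibitor of SERCA, stood at 632, 0 and 48.4 CPM in the controls and at 0, 1.54 and 14.9 CPM with TFEB overexpression. It was at 0 in 1 library of each group and is itself one of the atrial markers. Control 37 too was above every TFEB library, and the fitted log2 fold change of −5.41 (SE 2.47) was −2.17 without control 35 and −8.26 without TFEB 43.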

How the data were processed

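RNA was sequenced from 6 mouse heart libraries, 3 control and 3 TFEB overexpression. Per the submitters' processing notes, which give no roles, the tools were RSEM 1.3.1, HISAT2 2.1.0, DESeq2 1.4.5 and Bowtie2 2.3.4.3, and the build was mm10. The authors deposited, per the file headers, an estimated count for each of 62498 transcripts in each library, which is not scaled. Per the file headers the authors deposited TPM as well, scaled for length and to 1 sum per library. Neither a strand setting nor a filter is given in the sources used here.

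From these, counts were summed per Entrez gene and rounded, and 117 genes without a symbol (0.510% of counts) were kept. CPM used TMM factors. edgeR 4.0.16 (filterByExpr, glmQLFit, glmQLFTest, two-sided) was fitted on 13565 genes, with Benjamini-Hochberg adjustment over all of them and calls at an adjusted p under 0.05. Log2 list levels used a prior count of 2. Alternatives were RLE scaling, DESeq2 1.42.0, limma-voom (limma 3.58.1), limma-trend on log2(TPM + 1), no filter, 10 counts in 3 libraries, the cardiomyocyte level as a covariate, an adjusted p under 0.1, and leaving out each library. The script was tested on simulated data. Gene coordinates are from RefSeq (mm10), and protein lengths from the coding parts of the matching GENCODE models.

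The members, the 8 pathway groups and the 11 marker lists were chosen with earlier results of these data known, and support nothing by their choice. Members given in full were Ryr2, Atp2a2, Pln, Casq2, Cacna1c, Slc8a1, Kcnj3, Kcnj5, Kcnd2, Kcnip2, Hcn4, Gja1 and Gja5, plus the 8 others with the smallest p. Pathway genes named were Sln and those whose groups did not overlap and whose mean was 5 CPM or more, except genes that are not reported here.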

Additional observations from a re-analysis of the deposited data

How the results depend on the processing

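No member and no pathway gene was called under any alternative, and the lowest adjusted p of a member in any of them was 0.792. With single libraries left out, a higher value in TFEB overexpression was seen in 5 members (without TFEB 43) to 24 (without TFEB 34), 23 without control 37, against 13 with all libraries; this count was added after the data were seen. The median of the members then ran from −0.26 to 0.14. The sign was the same in every alternative for 8 members, and with single libraries left out their log2 values varied as follows: Camk2d 0.077 to 0.20, Slc8a1 0.032 to 0.17, Kcnj3 −2.02 to −0.35, Kcnj5 −0.80 to −0.24, Kcnip2 0.12 to 0.72, Kcnh2 −0.53 to −0.022, Kcna5 −0.63 to −0.21, and Hcn2 0.17 to 0.75. For the other 23 it turned when a library was left out, over these log2 ranges: Ryr2 −0.38 to 0.050, Casq2 −0.059 to 0.22, Trdn −0.34 to 0.044, Asph −0.046 to 0.12, Jph2 −0.053 to 0.20, Hrc −0.50 to 0.21, Srl −0.22 to 0.17, Atp2a2 −0.51 to 0.20, Pln −0.26 to 0.27, S100a1 −0.025 to 0.13, Cacna1c −0.15 to 0.19, Cacnb2 −0.34 to 0.18, Cacna2d1 −0.28 to 0.030, Fxyd1 −0.084 to 0.13, Kcnj2 −0.63 to 0.32, Kcnj11 −0.27 to 0.20, Kcnk3 −0.21 to 0.13, Kcnd2 −0.81 to 0.058, Kcnd3 −0.45 to 0.057, Kcnq1 −0.20 to 0.23, Hcn4 −0.87 to 0.30, Gja1 −0.083 to 0.29, and Gja5 −1.74 to 0.11. With all libraries, Pln turned to −0.0053 by limma-voom, −0.0072 on log2(TPM + 1) and −0.014 with the cardiomyocyte covariate, and Kcnq1 to −0.0061 on log2(TPM + 1); the cause was not tested. The Gja5 to Gja1 ratio went from −0.91 to 0.05 on the log2 scale without control 35. In counts simulated for this comparison on 13565 genes, 100 genes were changed at each size. The test called 17% of the genes changed 2-fold and 78% of those changed 4-fold, and 7 calls were false. Those counts were drawn independently for each gene, without the shifts that the members shared between libraries. The rates therefore need not hold for these members. No paired analysis was possible because the 2 groups share no replicate number.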

Other observations

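The remaining marker lists, as mean log2 CPM of their tested genes relative to the 6 libraries, gave the following levels. Fibroblast markers (9 tested, 3 higher in TFEB overexpression, median log2 fold change −0.28) ran from −0.14 to 0.37 in control and from −0.53 to 0.27 with TFEB overexpression. Smooth muscle markers (6 tested, 4 higher, median 0.18) ran from −0.12 to 0.08 in control and from −0.83 to 0.63 with TFEB overexpression. Endothelial markers (6 tested, 2 higher, median −0.05) stayed between −0.15 and 0.11 in all 6 libraries. Of 5 sinus node markers 3 were tested, with levels from −0.47 in TFEB 43 to 0.30 in TFEB 34. Schwann cell and neuron markers (4 tested of 7) ran from −0.52 to 0.25. Adipocyte markers (4 tested of 5, 0 higher, median −4.16) ran from 0.10 to 3.67 in control and from −3.84 to −0.65 with TFEB overexpression, with 3 of the 5 at 0 in TFEB 34. No gene of these lists passed the edgeR test after adjustment.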
